A study of Mus musculus with 12 samples.

Results

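The antioxidant defence genes described here are 40 genes of NRF2 signalling, glutathione and thioredoxin chemistry, superoxide and peroxide removal and NADPH supply. They were chosen by name, and all 40 had a row among the 15838 genes measured in CEC (corneal endothelial cells) taken with Descemet membrane, the basement membrane on which these cells sit. RNAseq covered 12 libraries from mice at 10 weeks of age, 3 for each sex of each genotype (KO and WT). KO mice were C57BL/6 animals homozygous for a targeted deletion of internal exons of *Slc4a11*, which is not restricted to the cornea, and WT mice were *Slc4a11*+/+ littermates. The labels give no treatment for any group. The study's methods describe 3 males and 3 females of each genotype, with the membranes of both corneas processed as pairs, which reads as 1 mouse per library. The sample labels describe pooled membranes and do not say whether the pool goes beyond both eyes of 1 mouse.

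For each gene the values used here are the authors' mean over the libraries, in log2 CPM. CPM is the read count of a gene scaled to the size of its library, which the study's methods adjust by TMM (trimmed mean of M values). KO and WT and both sexes enter this mean alike. Values given in CPM are this mean turned back from the log2 scale, so each is a geometric mean over the libraries. The same tables also hold the authors' own statistics for genotype, sex and their interaction, and these are not reported here. Each value below is therefore a level in the pooled material, with no error, no level per group and no test of any difference between genes. The depth of the libraries is unknown. To compare genes with each other, each level was divided by the length of the gene's annotated exons and is given in CPM per kb. A percentile is the percent of the 15824 genes with an annotated length that had a lower level per kb.

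NRF2, encoded by *Nfe2l2*, is a transcription factor that KEAP1 holds in the cytoplasm and marks for degradation. When oxidants or electrophiles modify KEAP1, NRF2 enters the nucleus, pairs with a small MAF protein and binds antioxidant response elements near genes of glutathione synthesis, thioredoxin reduction and NADPH supply. The glutathione and thioredoxin systems then pass electrons from NADPH to peroxidases, which reduce the hydrogen peroxide that superoxide dismutases make. CEC pump ions across the cornea throughout life and are rich in mitochondria, a main source of superoxide.

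The material carried the markers of corneal endothelium at high level. All 9 markers of this cell type were among the top 10% of genes per kb, from 70.3 CPM per kb to 2009 CPM per kb for *Aqp1*, a water channel. *Slc4a11* itself averaged 335 CPM per kb, a mean over KO and WT libraries that does not check the labels. Markers of stromal keratocytes were also high, with 6 of 7 in the top 10% and a highest level of 650 CPM per kb for *Dcn*, which encodes the matrix proteoglycan decorin. None of 7 corneal epithelial, 6 leukocyte or 5 vascular endothelial markers reached the top 10%, and the highest were *Krt5* at 15.8, *Lyz2* at 15.0 and *Kdr* at 9.10 CPM per kb. The highest iris pigment marker, *Pmel*, stood at 2.00 CPM per kb and the highest lens marker, *Bfsp1*, at 2.59 CPM per kb. Of the red blood cell list 1 of 5 genes had a value, *Alas2* at 1.45 CPM per kb. Of the muscle list 2 of 5 had a value, and the higher, *Myh11* at 27.1 CPM per kb, was in the top 10%. Bulk RNA cannot tell fewer cells of a type from less RNA per cell, and the part of stromal or other cells in the levels below was not tested.

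The 40 antioxidant defence genes as listed lay high in this transcriptome. Their median was 11.5 CPM per kb, against 3.45 CPM per kb over all genes, and 35 of the 40 (87.5%) were above that all-gene median. The top 10% of all genes, from 21.4 CPM per kb upwards, held 17 of the 40 (42.5%). Of the 12990 protein-coding genes with a length, 57.8% were above the same median and 11.7% in the same top 10%. The 40 genes were chosen with earlier results of these data known, so these shares describe this list and not the pathways as a whole. The 74 other pathway genes with a value, described below, had a median of 5.42 CPM per kb, against 4.55 CPM per kb over protein-coding genes. In CPM without regard to length, 36 of the 40 genes had at least 10 CPM and 10 had at least 100 CPM, and none was under 1 CPM. Summed over the 40 genes the level was 5842 CPM, or 0.598% of the sum over all genes, and *Tkt* and *Sod3* made up 63.1% of it. These are sums of geometric means and not exact shares of the reads.

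**Figure D1:**
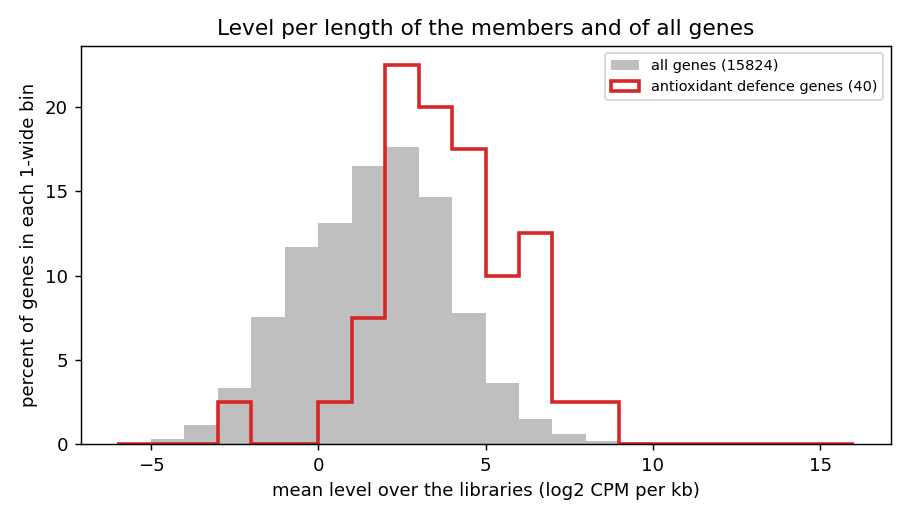
Percent of genes in each bin of mean level (log2 CPM per kb) for all 15824 genes with a length (grey) and the 40 antioxidant defence genes (red outline). The red outline sits to the right of the grey, with medians of 3.52 and 1.79 log2 CPM per kb.

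The order of the genes depends on the length used. With the longest transcript, the coding sequence or no length in place of the exon union, 9 genes stayed in the top 10% throughout, namely *Tkt*, *Sod3*, *Gstm1*, *Gpx1*, *Prdx5*, *Gsta4*, *Gpx4*, *Prdx1* and *Sod1*. *Tkt* was the highest and *Sod3* the next by all 4 measures. *Gpx3*, *Mgst3* and *Slc7a11* were below the median of all genes by all 4 measures.

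**Figure D2:**
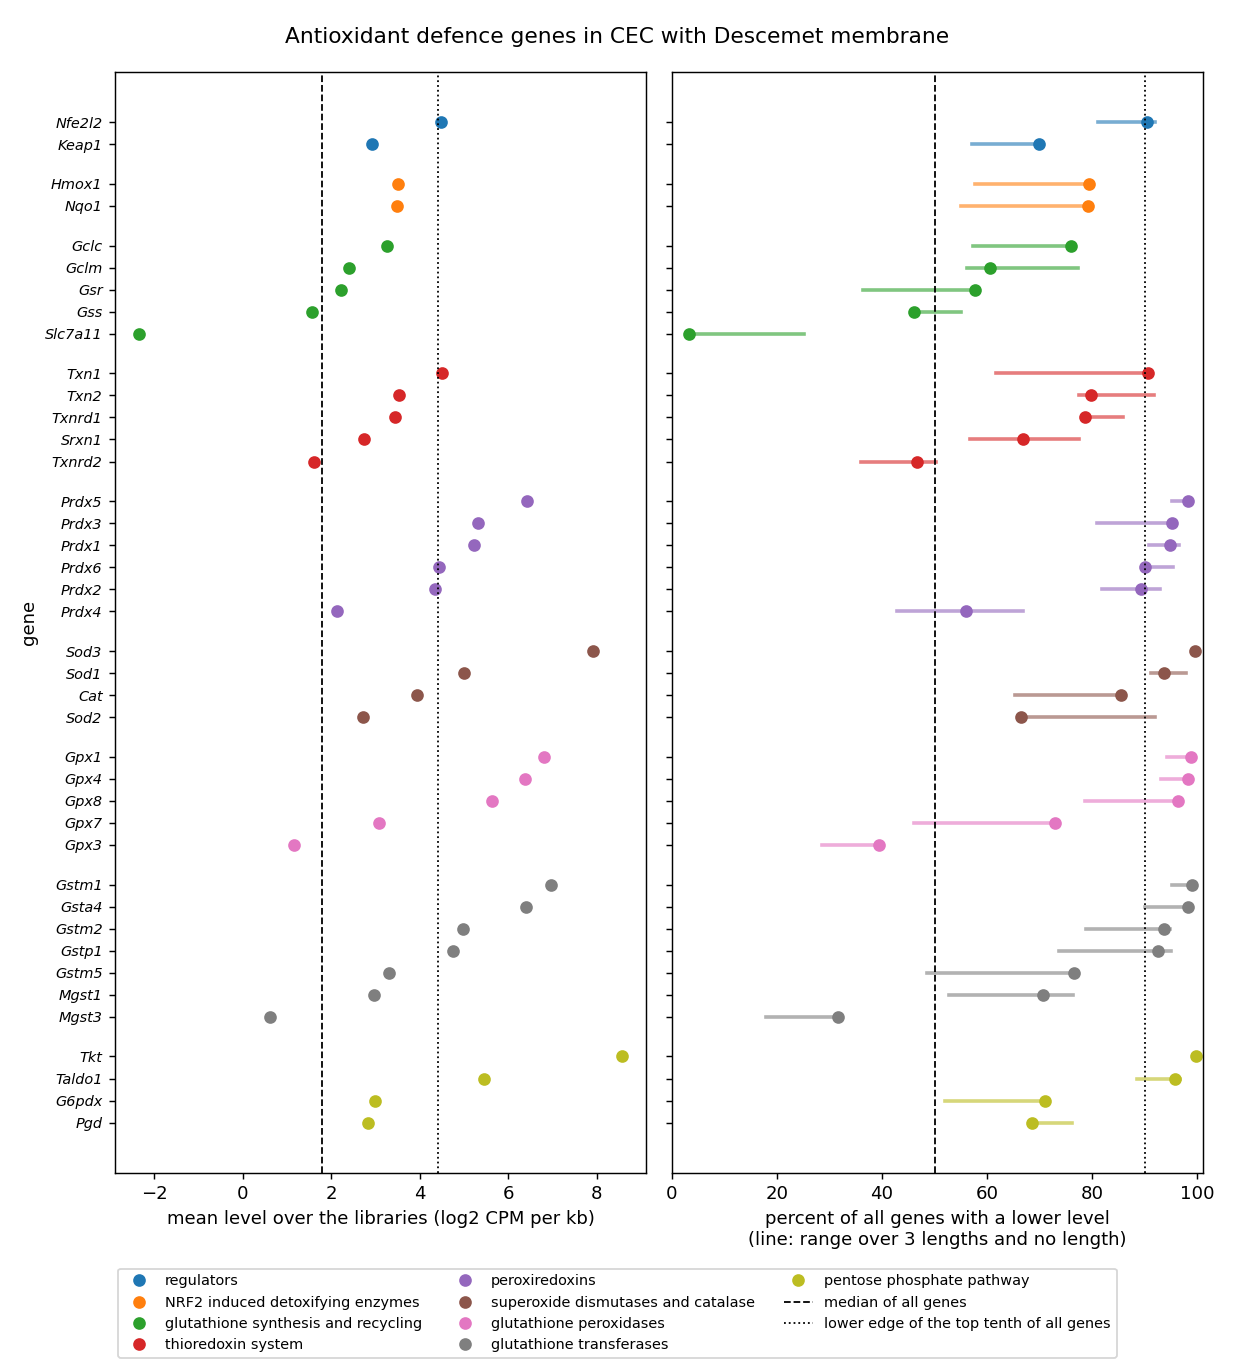
Mean level of each antioxidant defence gene in log2 CPM per kb of exon (left) and its percentile among all genes (right), coloured by role. Lines on the right give the range of the percentile over 3 lengths and no length, and run from 66.4 to 91.9 for *Sod2* but only from 99.7 to 99.8 for *Tkt*.

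The regulator *Nfe2l2* (chromosome 2, 75675513 to 75704641, GRCm38) stood at 84.6 CPM and 22.3 CPM per kb, at the lower edge of the top 10%. *Keap1* (chromosome 9, 21229730 to 21239361), its negative regulator, had 35.3 CPM and 7.53 CPM per kb, 2.96-fold below *Nfe2l2* per kb and between 2.50-fold and 3.49-fold below it over the 3 lengths. The classical NRF2 targets *Nqo1*, a quinone reductase, and *Hmox1*, which breaks down heme, had nearly the same level, 11.3 and 11.4 CPM per kb, at percentiles of 79.3 and 79.4. These levels say how much RNA each gene contributed and not whether NRF2 was active.

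In a list of partners of NRF2 and of related or competing factors, all 8 genes had a value and 6 were above the all-gene median. The highest was *Nfe2l1*, the related factor NRF1, at 87.3 CPM per kb, 3.92-fold above *Nfe2l2* per kb. The lowest was the small MAF gene *Maff* at 2.14 CPM per kb.

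The letters of the antioxidant response element core, TGACNNNGC on either strand, were looked up in the promoters of these genes, from 250 bases before to 50 bases after each annotated start in RefSeq (GRCm38.p6). Promoters were held for 34 of the 40 genes, and the 6 without an entry were *Gclc*, *Gsr*, *Hmox1*, *Prdx6*, *Sod3* and *Gsta4*. A match was found for 10 of the 34 (29.4%), against 14.0% of 27025 genes with a promoter and 16.99% of the 10954 of them measured here. Genes with several starts were counted once if any start had a match, and 5 of the 34 had more than 1. When only the bases before the start were read, 8 of the 34 (23.5%) had a match, against 11.5% of all genes and 14.0% of the measured ones. With the looser letters TGANNNNGC the shares drew together, at 17 of 34 (50.0%) and 45.05% of all genes and 48.2% of the measured ones. The 8 matches that lie before the start are shown on the strand of each gene, in lower case with the matching letters in capitals, so that the letters behind these counts can be read.

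Nfe2l2, chr2:75704875-75704913, minus strand, match 240 bases before the start: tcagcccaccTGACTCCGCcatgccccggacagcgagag
Gclm, chr3:122245403-122245451, plus strand, 134 bases before: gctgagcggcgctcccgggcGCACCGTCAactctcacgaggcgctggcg
Prdx1, chr4:116685446-116685494, plus strand, 133 bases before: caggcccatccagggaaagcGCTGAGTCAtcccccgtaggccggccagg
Txnrd1, chr10:82859094-82859142, plus strand, 92 bases before: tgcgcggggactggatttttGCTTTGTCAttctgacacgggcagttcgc
G6pdx, chrX:74428909-74428957, minus strand, 57 bases before: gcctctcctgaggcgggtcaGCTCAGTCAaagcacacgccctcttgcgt
Sod1, chr16:90220686-90220734, plus strand, 56 bases before: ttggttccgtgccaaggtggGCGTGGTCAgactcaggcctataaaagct
Mgst1, chr6:138140451-138140499, plus strand, 56 bases before: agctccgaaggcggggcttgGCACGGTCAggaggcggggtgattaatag
Gstm5, chr3:107895792-107895840, plus strand, 42 bases before: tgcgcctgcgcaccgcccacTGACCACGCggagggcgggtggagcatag

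In 6 of these 8 promoters (*Gclm*, *Prdx1*, *Txnrd1*, *G6pdx*, *Sod1* and *Mgst1*) the capitals read as the reverse complement of the core. Read on the strand of the core they were TGACTCAGC for *Prdx1*, TGACTGAGC for *G6pdx* and TGACTCCGC for *Nfe2l2*, and *Sod1* and *Gstm5* shared TGACCACGC. The other matches, of *Srxn1* and *Pgd*, began 28 and 3 bases after the start. For *Txnrd1*, *Pgd* and *G6pdx* the window with the match lay wholly inside the gene as annotated here, so its start is an internal one. For *Mgst1* the window began just outside the annotated gene, but the match and the start after it lay inside, so this start is internal too. *Txnrd1* had 3 windows and *Pgd* and *Mgst1* 2 each, and which start is used in these cells was not tested. The 10 genes with a match ran from 5.29 CPM per kb for *Gclm* to 37.2 CPM per kb for *Prdx1*. *Tkt*, *Gstm1* and *Gpx1*, among the highest genes, had no match in this window. The classical NRF2 target *Nqo1* had none either, nor had *Slc7a11*, *Txn1* or *Gss*, so the window does not mark NRF2 targets as such. A match is a description of the letters and no evidence of binding.

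Glutathione synthesis and recycling was the lowest of the role groups, with a median of 4.68 CPM per kb over 5 genes and none in the top 10%. *Gclc*, the catalytic subunit of the enzyme that joins glutamate and cysteine, had 36.3 CPM and 9.64 CPM per kb. *Gclm*, its modifier subunit, had 33.3 CPM and 5.29 CPM per kb, 1.82-fold below *Gclc* per kb of exon but 2.13-fold above it per kb of coding sequence, so their order is not settled. *Gss*, which adds glycine, followed at 2.97 CPM per kb, and *Gsr*, which reduces oxidised glutathione with NADPH, at 4.68 CPM per kb.

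*Slc7a11* (chromosome 3, 49892526 to 50443614), the cystine-importing subunit of the exchanger xCT, was the lowest of all 40 genes per kb, at 2.75 CPM and 0.198 CPM per kb, a percentile of 3.27. Its exon union of 13922 bases is long, and per coding length its percentile was 13.5. *Slc3a2*, the heavy chain that xCT shares with several other amino acid transporters, had 446 CPM and 126 CPM per kb, the highest of the other glutathione genes. The gap between the chains was 639-fold per kb of exon and 144-fold per kb of coding sequence. In that list 14 of 15 genes had a value, all but *Ggt5*, and 8 were above the all-gene median. *Ggct*, which breaks down gamma-glutamyl peptides, was the lowest per kb of exon, at 0.333 CPM per kb. By the longest transcript and the coding sequence *Ggt1* was lower, and it had 1.34 CPM against 2.58 CPM for *Ggct*.

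In the thioredoxin system the cytosolic thioredoxin *Txn1* had 22.7 CPM per kb and the mitochondrial thioredoxin *Txn2* 11.6 CPM per kb. Their order turned with the length, *Txn2* being 1.96-fold below *Txn1* per kb of exon and above it by the longest transcript and by the coding sequence. The reductases, both selenoproteins, kept their order by all 3 lengths. The cytosolic *Txnrd1* had 77.2 CPM and 10.9 CPM per kb, and the mitochondrial *Txnrd2* had 13.4 CPM and 3.03 CPM per kb, between 3.59-fold and 4.97-fold lower. *Srxn1*, which repairs overoxidised peroxiredoxins, had 6.68 CPM per kb.

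All 11 other thioredoxin genes had a value and 9 were above the all-gene median. The highest was *Msrb3*, a methionine sulfoxide reductase, at 25.8 CPM per kb, and the lowest was *Msra*, the reductase of the other sulfoxide form, at 1.47 CPM per kb.

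The peroxiredoxins, thiol peroxidases that are reloaded mainly by thioredoxin, were all above the all-gene median, with a median of 28.3 CPM per kb. *Prdx5* (chromosome 19, 6906697 to 6910106), found in mitochondria, peroxisomes and cytosol, led the family at 183 CPM and 85.7 CPM per kb and did so by all 3 lengths. *Prdx3*, the mitochondrial member, and *Prdx1*, the main cytosolic member, lay close together at 39.7 and 37.2 CPM per kb, and *Prdx1* was the higher by the longest transcript and the coding sequence. *Prdx6*, which uses glutathione, had 21.5 CPM per kb and *Prdx2*, also cytosolic, 20.2 CPM per kb. *Prdx4*, the member of the endoplasmic reticulum, was the lowest by each of the 3 lengths, at 4.38 CPM per kb, between 5.49-fold and 16.9-fold below *Prdx1*.

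Of the superoxide dismutases the secreted form led. *Sod3* (chromosome 5, 52363791 to 52371418) had 899 CPM and 241 CPM per kb, a rank of 72 among the 15824 genes. *Sod1*, the copper and zinc enzyme of the cytosol, had 126 CPM and 31.7 CPM per kb, so that *Sod3* was 7.58-fold higher per kb of exon and 4.38-fold higher per kb of coding sequence. *Sod2*, the manganese enzyme of mitochondria, had 65.9 CPM and 6.58 CPM per kb, between 2.76-fold and 4.82-fold below *Sod1* over the 3 lengths. *Cat*, the catalase of peroxisomes, had 40.1 CPM and 15.4 CPM per kb. *Ccs*, the copper chaperone of SOD1, had 10.7 CPM per kb (a gene chosen after its value was seen).

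The glutathione peroxidases spanned the widest range within a family of peroxidases and kept the same order by all 3 lengths. *Gpx1* (chromosome 9, 108338903 to 108340343), a selenoprotein that reduces hydrogen peroxide, stood at 162 CPM and 113 CPM per kb, and *Gpx4*, the selenoprotein that reduces lipid peroxides in membranes, at 143 CPM and 83.2 CPM per kb. *Gpx8* and *Gpx7*, which lack selenium and sit in the endoplasmic reticulum, differed by 5.85-fold per kb, at 49.6 and 8.48 CPM per kb. *Gpx3*, the secreted selenoprotein of plasma, had 4.03 CPM and 2.22 CPM per kb, 50.7-fold below *Gpx1* per kb. The secreted members of the dismutase and the peroxidase families were therefore at opposite ends, *Sod3* at the top and *Gpx3* at the bottom of its family.

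Among 7 genes for making selenoproteins and loading metals, 3 were above the all-gene median. *Selenop*, the selenium carrier of plasma, was the highest at 50.7 CPM per kb and *Pstk*, a kinase on the way to selenocysteine, the lowest at 0.928 CPM per kb.

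The glutathione transferases conjugate glutathione to electrophiles. *Gstm1* (chromosome 3, 108012255 to 108017973) was the highest at 184 CPM and 125 CPM per kb, followed by *Gsta4*, which has high activity towards the lipid peroxidation product 4-hydroxynonenal, at 107 CPM and 84.4 CPM per kb. *Gstm2* and *Gstm5*, which lie in the same cluster on chromosome 3, were 3.98-fold and 12.7-fold below *Gstm1* per kb. *Gstp1* had 26.7 CPM per kb. Of the membrane-bound enzymes *Mgst1* had 7.76 CPM per kb and *Mgst3* 1.52 CPM per kb, with 1.67 CPM, the lowest of the 40 genes when length is left aside.

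Of 19 other peroxidase and transferase genes, 12 had a value and 9 of these were above the all-gene median. *Gsto1*, an omega-class enzyme, was the highest at 72.6 CPM per kb and *Mgst2* the lowest at 0.206 CPM per kb. *Gpx2*, *Gpx5*, *Gpx6*, *Gsta1*, *Gsta2*, *Gstm3* and *Gstp2* have no row in the tables and are not analysed here.

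The pentose phosphate pathway, which regenerates NADPH, held the highest gene of all 40. *Tkt* (chromosome 14, 30548359 to 30574720) encodes transketolase, an enzyme of the non-oxidative branch and an abundant protein of the mouse cornea. It had 2786 CPM and 379 CPM per kb, rank 48 of 15824. In the mean over all libraries it stood 1.13-fold above *Slc4a11* per kb of exon and 2.30-fold above it per kb of coding sequence. That mean includes KO libraries, in which internal exons of *Slc4a11* are deleted, so the order of the 2 genes in WT cells is not known. *Taldo1*, the transaldolase of the same branch, had 43.8 CPM per kb. The enzymes of the oxidative branch, which make the NADPH, were lower: *G6pdx* had 24.4 CPM and 7.92 CPM per kb and *Pgd* 46.1 CPM and 7.16 CPM per kb, and which of them was the higher turned with the length. *Tkt* exceeded *G6pdx* by 47.8-fold per kb of exon and 94.4-fold per kb of coding sequence.

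All 10 genes listed as other NADPH sources had a value and 6 were above the all-gene median. This list also holds *Pgls*, *Rpia* and *Rpe*, enzymes of the pentose phosphate pathway that do not make NADPH themselves. *Idh2*, the mitochondrial isocitrate dehydrogenase that makes NADPH, was the highest at 32.0 CPM per kb, 4.04-fold above *G6pdx*. *Nnt*, the transhydrogenase of the inner mitochondrial membrane, was the lowest at 3.52 CPM and 0.500 CPM per kb, a percentile of 12.4. The C57BL/6J substrain is known to carry a deletion within *Nnt*. The study's methods name C57BL/6 without a substrain, and the part of such a deletion in this level was not tested.

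Genes that make superoxide were low. Of 10 listed 7 had a value, with a median of 0.405 CPM per kb, none in the top 10% and 2 above the all-gene median. *Cyba*, the p22phox subunit of NADPH oxidases, was the highest at 11.3 CPM per kb, and *Nox1*, *Nox3* and *Duox2* had no row. This list leaves out the respiratory chain. Among 5 partners of HMOX1 in heme and iron handling, 4 were above the all-gene median, with *Fth1*, the ferritin heavy chain, at 180 CPM per kb and *Blvrb*, a biliverdin reductase, at 3.16 CPM per kb.

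**Figure D3:**
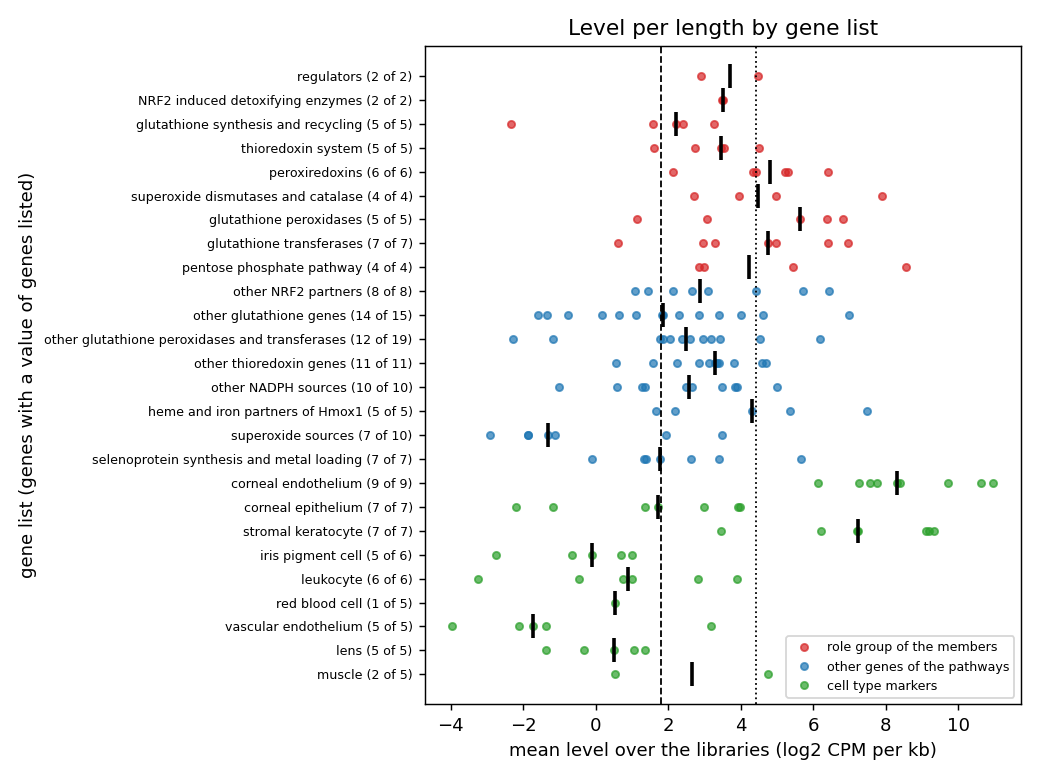
Level per kb (log2 CPM per kb) of each gene with a value, by role group of the antioxidant defence genes (red), by list of other pathway genes (blue) and by cell type marker list (green). Black ticks are medians, the dashed line is the all-gene median of 1.79 and the dotted line the lower edge of the top 10% at 4.42. Corneal endothelial and stromal markers lie furthest right and superoxide sources, apart from 2 genes, left of the dashed line.

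Over these 8 lists together, 74 of 85 other pathway genes had a value, with a median of 5.42 CPM per kb. Of the 74 genes 47 were above the all-gene median and 13 in the top 10%. Over protein-coding genes the median was 4.55 CPM per kb, with 57.8% above the all-gene median and 11.7% in the top 10%. These other pathway genes thus lay closer to protein-coding genes at large than the 40 antioxidant defence genes did. The highest and lowest genes named for these lists are those per kb of exon. By the coding sequence *Bach1*, *Ggt1*, *Gsto2*, *Sesn2* and *Sephs2* were instead the lowest of their lists.

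Several of the genes share sequence with copies elsewhere, and reads of 50 bases cannot always tell them apart. Of the 40 genes 24 had no word of 50 bases in common with an annotated transcript of another gene, and 3 shared over 20% of their words. *Gpx4* shared 34.7% with its processed pseudogene *Gpx4-ps2*, which itself had a mean of 2.89 log2 CPM, and *Gstp1* 33.7% with the neighbouring *Gstp2*. *Sod2* shared 21.04%, mostly with an annotated long non-coding RNA, and *Gstm1* 18.9%, mostly with the pseudogene *Gstm2-ps1*. *Gstm2* shared 5.65%, *G6pdx* 6.46% with its retrocopy *G6pd2*, and *Prdx1* 8.29%, mostly with the pseudogene *Gm21399* at a mean of -0.23 log2 CPM. *Tkt*, *Sod3*, *Gpx1*, *Prdx5* and *Gsta4* shared none. The levels of *Gpx4*, *Gstp1*, *Sod2* and *Gstm1* are therefore uncertain, since the sources used here do not give how such reads were assigned.

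**Figure D4:**
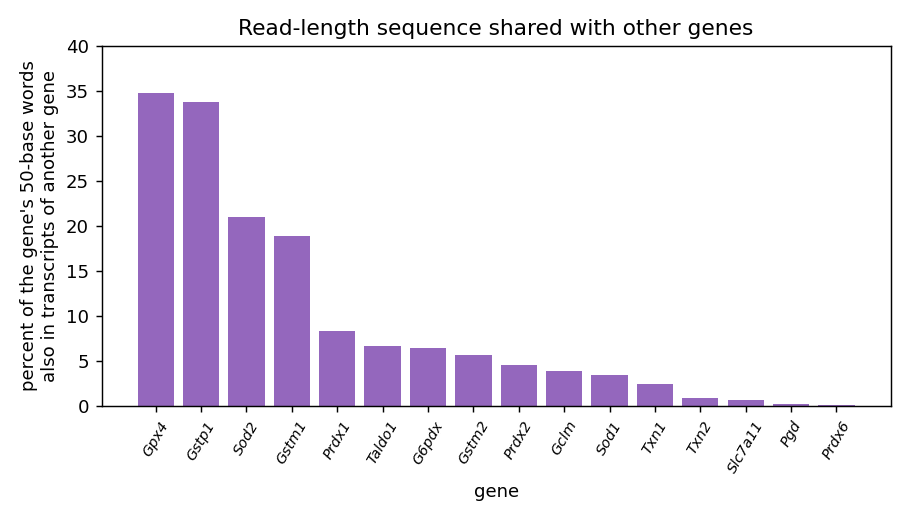
Percent of each gene's words of 50 bases that also occur in transcripts of another gene, for the 16 antioxidant defence genes with any. *Gpx4* and *Gstp1* lead at 34.7% and 33.7%, and the bars fall to 0.136% for *Prdx6*.

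In addition, 15 of the 40 genes are overlapped by another annotated gene, on either strand. Pairs of protein-coding genes that overlap included *Prdx5* with *Trmt112*, *Sod1* with *Scaf4*, *Prdx2* with *Junb* and *Rnaseh2a*, *Gss* with *Acss2*, *Gpx8* with *Cdc20b*, *G6pdx* with *Ikbkg* and *Txnrd1* with *Eid3*. *Txnrd1* and *Eid3* lie on the same strand, so strand cannot tell them apart, and the other pairs named lie on opposite strands. The libraries kept the strand, but whether the counting used it is not given in the sources used here. The 40 genes are spread over 18 chromosomes, with 5 on chromosome 3.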

How the data were processed

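The authors prepared stranded total RNA libraries from CEC with Descemet membrane (12 libraries) and read 50 bases from both ends. Per the labels and the study's methods, reads were aligned to GRCm38 with Hisat2, and counts were converted to CPM, scaled by TMM and fitted with limma and voom. The 3 tables the authors deposited hold, for the same 15838 genes, the mean log2 CPM over the libraries, which was equal in all 3. The 5 other columns of each table are the authors' own comparisons (log fold changes, t, p-values and B statistics) and were not used, so no fit or test was made and the depth is unknown. The counter, the annotation, the tool versions and the gene filter are not given in the sources used here.

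Lengths (union of exons, longest transcript, longest coding sequence) and positions were taken from GENCODE M21 (GRCm38), where 15824 genes were matched. Promoters came from RefSeq (GRCm38.p6). Words of 50 bases, the read length, were compared between transcripts on the annotated strand. This comparison was chosen after seeing the data and replaces a planned one of protein identity. Scripts were tested on simulated data (Python 3.11.15, pandas 2.3.3). The members and lists were chosen with earlier results of these data known. The text names every member, the highest and lowest gene and those without a value of each list of other pathway genes, and the highest marker per list, by level per kb, except for items that are not reported here. The alternatives were other lengths, no length, other background genes, other motif letters and a shorter window.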

Additional observations from a re-analysis of the deposited data

How the results depend on the processing

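Of the 40 genes, 9 rather than 17 were in the top 10% when length was left aside, and between 13 and 17 with other lengths or background genes. The number above the all-gene median stayed between 32 and 37. On the log2 scale the median of the genes exceeded that of all genes by 1.73 per kb of exon, 1.98 by the longest transcript and 1.61 by the coding sequence. The letters TGANNNNGC matched 17 promoters in place of 10, and 8 of 34 (23.5%) matched when only bases before the start were read, against 14.0% of measured genes. Within role groups 27 of 40 genes kept their place by the longest transcript and 24 by the coding sequence. Of 38 pairs of genes, 5 changed order with the length. No paired analysis was possible because the tables used here hold 1 mean per gene and no value per library. For the same reason no library could be left out, no pseudocount or filter could be changed, and neither depth nor the spread between libraries limits a value in a known way.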
